A study of Drosophila melanogaster with 4 samples.

Results

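The regions described are the H2Av clusters of chromosome arm 2L of Drosophila melanogaster, called by the authors in head nuclei of adult flies. They were taken as all clusters on 2L that start at or below position 21011544 of FlyBase release 5, which leaves out the 2 Mb at the centromere end of the 23011544 bp arm. The 926 clusters of replicate 1 were chosen from 6778, the 951 of replicate 2 from 6672, and the 1026 of the authors' combined list from 7576. On either side of the limit, the last replicate 1 cluster taken started at 20933504 (1761 bp wide, score 0.660) and the first one left out at 21051415 (4987 bp, score 0.998). In replicate 2 these clusters started at 20920754 (11936 bp, score 1.71) and at 21051502 (4665 bp, score 0.732).

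The flies were wild type Oregon-R of mixed adult age, bred in population cages. Heads were separated from bodies with sieves, so each library pooled many animals and all cell types of the head. The sample titles name head nuclei as the material. Chromatin was fixed with formaldehyde and precipitated with an antibody named 9751. There were 2 ChIP libraries, each called against its own input library, and no treated, mutant or second tissue group, so all groups share strain, genotype and stage. The labels do not say whether the replicates came from separate fly populations, and the spread between them may be technical. In such pooled tissue, a region marked in few cells and a region marked weakly in many cannot be told apart. The gene annotation at hand is on another release of the genome, so the position of clusters relative to genes and their exons, introns or UTRs was not analysed here, nor were markers of head cell types.

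H2Av is the histone H2A variant of Drosophila and does the work that H2A.Z and H2A.X share out in other animals. It is placed in nucleosomes by remodelling complexes that contain the Domino ATPase. It is known from nucleosomes just downstream of the start sites of active genes, from heterochromatin and, once phosphorylated, from DNA breaks. 2L is one of the large, mostly euchromatic autosomal arms. Its numbering begins at the telomere and runs towards the centromere, and "outer" and "inner" below mean nearer to the telomere and nearer to the centromere.

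H2Av clusters took up about the same part of 2L in both replicates. Replicate 1 covered 20.9% of the analysed length and replicate 2 covered 21.2%, a mean of 21.0 ± 0.172% (SD, n = 2). The covered length was 4.39 Mb and 4.44 Mb. The density was 44.1 and 45.3 clusters per Mb, or 44.7 ± 0.841 (SD, n = 2). The combined list covered more, 5.14 Mb or 24.5%, with 48.8 clusters per Mb. Read counts are not part of the lists, so the depth is unknown and no counting interval can be given. The lists show where H2Av was called, and they cannot show its absence elsewhere.

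The covered length was spread unevenly along the arm. In fixed windows of 100 kb, of which 210 were full, coverage ran from 0 to 85.8% in replicate 1 and from 0 to 83.8% in replicate 2. The median window stood at 14.6% in replicate 1 and 15.9% in replicate 2. The middle 50% of windows lay between 3.28% and 34.8% in replicate 1 and between 3.77% and 33.3% in replicate 2. The 52 most covered windows of each list held 60.2% and 59.1% of its covered length. Windows of at least 40% coverage are called rich here, and windows of at most 5% poor. Replicate 1 had 40 rich and 64 poor windows, replicate 2 had 36 and 63, and the combined list had 53 and 59.

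**Figure D1:**
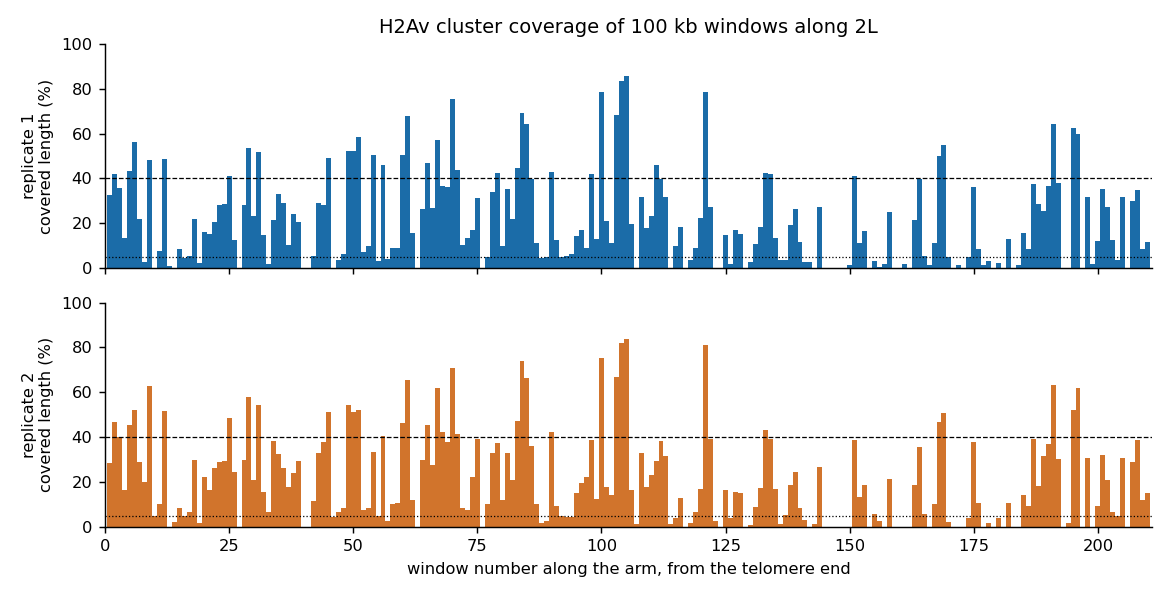
Coverage of the 210 full 100 kb windows of 2L, in percent of window length (y axis), by window number from the telomere end (x axis), for replicate 1 (upper panel) and replicate 2 (lower panel). The dashed line marks the 40% limit of rich windows and the dotted line the 5% limit of poor ones; windows 104 and 105 are the 2 highest in both panels, and poor windows are denser in the inner part.

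Most windows that were rich or poor in one library were so in the other. In all, 34 windows were rich in both, 58 were poor in both and 118 were neither. No window was rich in one replicate and poor in the other. The 6 windows rich in replicate 1 alone and the 2 rich in replicate 2 alone had at least 29.1% coverage in the other list. The 6 poor in replicate 1 alone and the 5 poor in replicate 2 alone had at most 19.8% in the other. Across the 210 windows, coverage in the replicates correlated with a Pearson r of 0.98 and a Spearman rho of 0.97. This is a description across windows of 1 arm, which share their library and, between neighbours, some clusters.

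**Figure D2:**
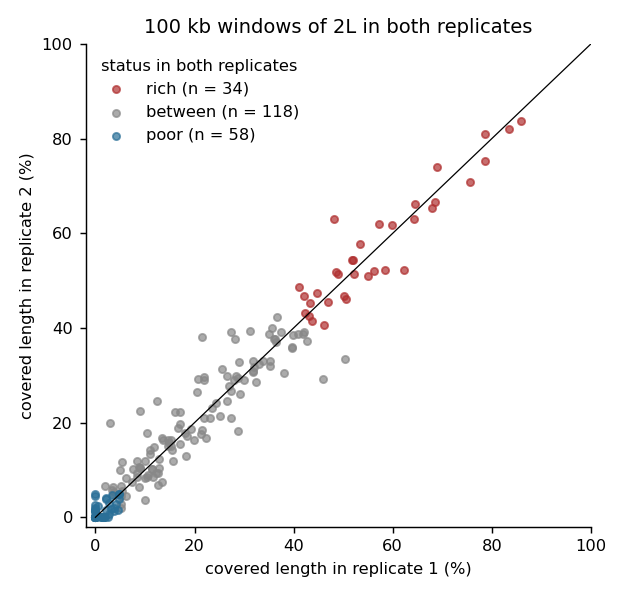
Coverage of each 100 kb window of 2L in replicate 1 (x axis, percent) and replicate 2 (y axis, percent), with 1 point per window. Colours mark the 34 windows rich in both lists, the 58 poor in both and the 118 others, and the line marks equal coverage; no point lies among the rich windows of one axis and the poor of the other.

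Coverage peaked in the window from 10400001 to 10500000, with 85.8% in replicate 1 and 83.8% in replicate 2. Its neighbour from 10300001 to 10400000 followed with 83.5% and 82.1%. Next came the window from 12000001 to 12100000, with 78.7% and 80.9%, and then that from 9900001 to 10000000, with 78.7% and 75.3%. These 4 windows held 6 to 12 clusters each per replicate. The remaining 4 of the 8 most covered windows began at 6900001, 8300001, 10200001 and 6000001, with means between 66.6% and 73.3%. The window from 12000001 stood alone, whereas the 3 windows from 10200001 to 10500000 formed 1 block.

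At the other extreme, 25 windows had no covered base in either replicate. Of these, 24 were also empty in the combined list, and the exception was covered to 1.04% there. The first 8 along the arm began at 2600001, 3900001, 4000001, 6200001, 7500001, 11600001, 12300001 and 12800001.

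The replicates differed little in most windows. The difference was above 10 percentage points in 10 windows, and its median size over all windows was 1.87 points. Replicate 1 was higher in 95 windows, replicate 2 in 90, and 25 were equal. The widest gaps in favour of replicate 1 were at 5300001 to 5400000 (50.4% against 33.4%) and at 11000001 to 11100000 (46.0% against 29.1%), followed by the windows from 18700001 (28.8% against 18.3%) and from 19400001 (62.4% against 52.2%). In the window from 11000001 this went with 17 clusters in replicate 1 and 5 in replicate 2. Replicate 2 was higher by the widest margin at 700001 to 800000 (2.91% against 19.8%) and at 3300001 to 3400000 (21.4% against 38.1%). The next were the windows from 800001 (48.2% against 63.0%) and from 9600001 (9.03% against 22.4%).

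The longest poor block was longer than the longest rich block in each list. Poor windows also outnumbered rich ones in each list under the limits chosen, and the part of this in block length was not tested. A block is a run of at least 2 consecutive windows of the same kind. Taken from each list on its own, there were 9 rich blocks in replicate 1, 10 in replicate 2 and 14 in the combined list. Poor blocks numbered 15, 16 and 14. The rich blocks of replicate 1 summed to 2.1 Mb and the poor ones to 4.4 Mb, and those of replicate 2 to 2.3 Mb and 4.6 Mb. No rich block exceeded 300 kb in either replicate, and the longest in the combined list was 500 kb. The longest poor block was 600 kb in each of the 3 lists. Read in the replicate that had not defined them, the rich blocks of replicate 1 were covered to 56.8% in replicate 2, and the rich blocks of replicate 2 to 57.2% in replicate 1. The poor blocks were covered to 1.11% and 1.60% in the same way.

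Rich in both replicates were 8 blocks with 1.9 Mb in total, at 60.2% coverage (replicate 1) and 58.5% (replicate 2). The block from 10200001 to 10500000 stood highest, at 79.3% and 77.5% (mean 78.4 ± 1.27%, SD, n = 2). Its 28 and 29 clusters had median widths of 6927 bp and 6552 bp, the widest medians of the 8 blocks in both lists. The other 300 kb blocks were those from 8200001 to 8500000 (59.4% and 62.5%) and from 4800001 to 5100000 (54.3% and 52.7%).

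The remaining 5 rich blocks were 200 kb long. Coverage of the block from 19400001 to 19600000 was 61.2% (replicate 1) and 56.9% (replicate 2), and that of the block from 6900001 to 7100000 was 59.7% and 56.1%. Coverage was 59.3% and 55.8% from 5900001 to 6100000, and 52.6% and 48.9% from 16700001 to 16900000. The outermost block, from 400001 to 600000, was covered to 49.7% and 48.6%. In the 8 blocks the replicates differed by at most 4.22 percentage points, and all 8 were more covered in the combined list, by up to 15.2 points above the mean of the replicates in the block from 16700001.

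Poor in both replicates were 13 blocks with 3.8 Mb in total, at 0.856% coverage (replicate 1) and 0.668% (replicate 2). The longest ran for 600 kb from 14400001 to 15000000, with a single cluster of 1447 bp in replicate 1 (0.241%) and none in replicate 2. The 500 kb block from 17600001 to 18100000 was covered to 1.33% and 1.14%. The 400 kb blocks lay from 15800001 to 16200000 (0.421% and 0%) and from 17000001 to 17400000 (1.56% and 0.975%), and a 300 kb block lay from 14000001 to 14300000 (1.81% and 1.47%). Among these 5 longest, the clusters present were few, with at most 4 per block and replicate. The other 8 were 200 kb long and began at 1200001, 3900001, 11600001, 12200001, 12800001, 15500001, 18200001 and 19200001, with mean coverage from 0 to 1.38%. The block from 3900001 to 4100000 was empty in all 3 lists. In 7 places along the arm a rich window lay directly beside a poor one.

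Coverage was higher in the outer part of the analysed arm than in the inner part. The outer 105 windows, from 1 to 10500000, had coverage of 26.2% (replicate 1) and 27.6% (replicate 2). The inner 105 windows, from 10500001 to 21000000, were covered to 15.6% and 14.8%. The outer part thus had 1.68 times the coverage of the inner in replicate 1 and 1.87 times in replicate 2, a mean of 1.77 ± 0.133 (SD, n = 2), and 1.72 times in the combined list. The difference was 10.6 and 12.8 percentage points, with an SD of 1.56 points between the replicates. This SD shows how alike the libraries were and does not measure variation along the arm. Over single windows of 100 kb, coverage varied with an SD of 20.6 points in replicate 1 and 20.4 in replicate 2. The border was set at the middle of the windows with the profile known, so the values are a description without a test.

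The outer and inner clusters differed in number and hardly in median width. The outer part held 557 and 604 clusters, against 369 and 347 in the inner, a ratio of 1.51 and 1.74. The median width was 3075 bp outside and 3068 bp inside in replicate 1, and 3123.5 bp and 3124 bp in replicate 2. The coverage ratios, 1.68 and 1.87, exceeded the number ratios, so the covered length per cluster was higher outside in both. Median scores were 0.836 and 0.868 in replicate 1 and 0.966 and 0.990 in replicate 2, higher inside in both. The median gap was shorter outside, at 2810 bp against 3413.5 bp in replicate 1 and 2649 bp against 3618 bp in replicate 2. Of the 34 windows rich in both lists, 27 lay in the outer part, and of the 58 poor in both, 43 lay in the inner. Likewise 6 of the 8 rich blocks were outer and 11 of the 13 poor blocks inner.

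**Figure D3:**
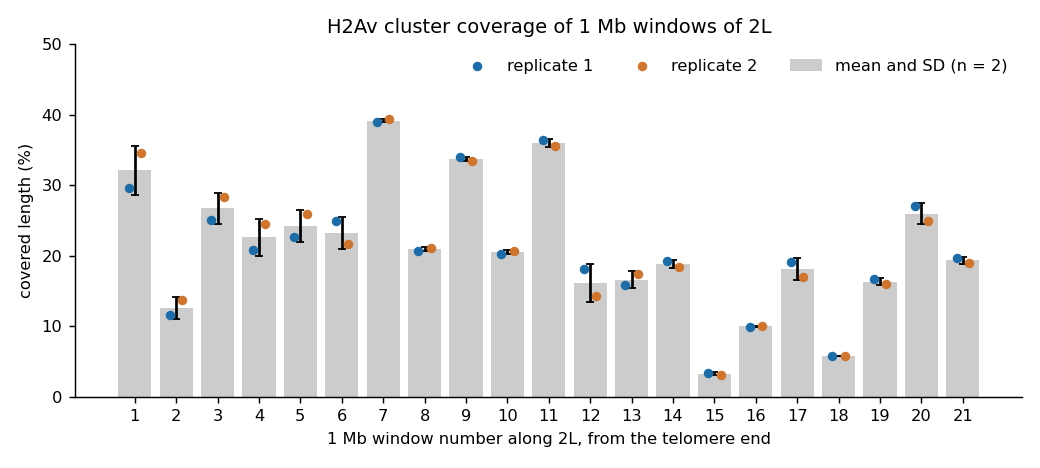
Coverage of the 21 windows of 1 Mb of 2L, in percent (y axis), by window number from the telomere end (x axis). Bars give the mean of the replicates with their SD (n = 2) and points the replicates; windows 7, 11 and 9 are the highest, and windows 15 and 18 the lowest.

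Over windows of 1 Mb, the highest was the one from 6000001 to 7000000, at 39.0% in replicate 1 and 39.3% in replicate 2, with 4 rich windows of 100 kb and 1 poor one. It was followed by that from 10000001 to 11000000 (36.3% and 35.6%), whose clusters had the highest median width in both lists (5454 bp and 4495 bp). The window from 8000001 to 9000000 came next (33.9% and 33.4%). In the least covered megabase, from 14000001 to 15000000, replicate 1 had 10 clusters and replicate 2 had 9, and 9 of its 10 windows of 100 kb were poor in both. The next lowest, from 17000001 to 18000000, had 16 and 12 clusters.

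The replicates also differed by position. In each of the 5 outermost windows of 1 Mb, replicate 2 was covered more than replicate 1, by 2.18 to 4.95 percentage points, and the mean over these windows was 21.9% and 25.4%. In the 16 windows further in, replicate 1 was higher in 10 and replicate 2 in 6, with means of 20.6% and 19.9%. The split after 5 windows was set with these values known, so it is a description without a test. The outer part was more covered than the inner in either library, by more in replicate 2.

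To see what rich windows held, windows were classed in one replicate and their clusters were read in the other, each cluster in the window that holds its midpoint. Number and width both add to the coverage that sets the classes, and coverage was much alike in the replicates, so the values are a description only. No cluster was narrower than 1301 bp, whereas a window can hold none. The ratios of rich to poor windows for number and for width therefore cannot be ranked. In windows classed in replicate 1, replicate 2 had 9.30 clusters per rich window, 4.97 per intermediate window and 0.812 per poor window. The mean width there was 5772 bp, 4147 bp and 2152 bp. The ratio of rich to poor windows was 11.4 for number and 2.68 for mean width, and that of rich to intermediate windows 1.87 and 1.39. Read the other way, with classes from replicate 2 and clusters from replicate 1, the numbers were 9.06, 5.00 and 0.714. The mean widths were 6042 bp, 4206 bp and 1985 bp. Here the ratios were 12.7 and 3.04 for rich to poor windows, and 1.81 and 1.44 for rich to intermediate ones.

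Clusters over 10 kb made up 15.3% of the clusters in rich windows of the first reading and 18.1% of the second. In intermediate windows they made up 7.21% and 7.39%, and in poor windows neither reading had a cluster of that width by its midpoint. The authors' score, which ranks clusters within a list, followed the same order. Its median was 1.05 in rich, 0.946 in intermediate and 0.846 in poor windows of replicate 2, and 0.985, 0.801 and 0.675 in those of replicate 1. Score rises with width within each list, so these orders are not separate results. The median gap between clusters of the same window was 1778 bp and 1739.5 bp in rich windows, and 2666 bp and 2633.5 bp in intermediate ones. In poor windows it was 2767.5 bp over 24 gaps and 3792 bp over 17. More clusters and more coverage leave less room for gaps in a window, so this order is no separate result either.

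**Figure D4:**
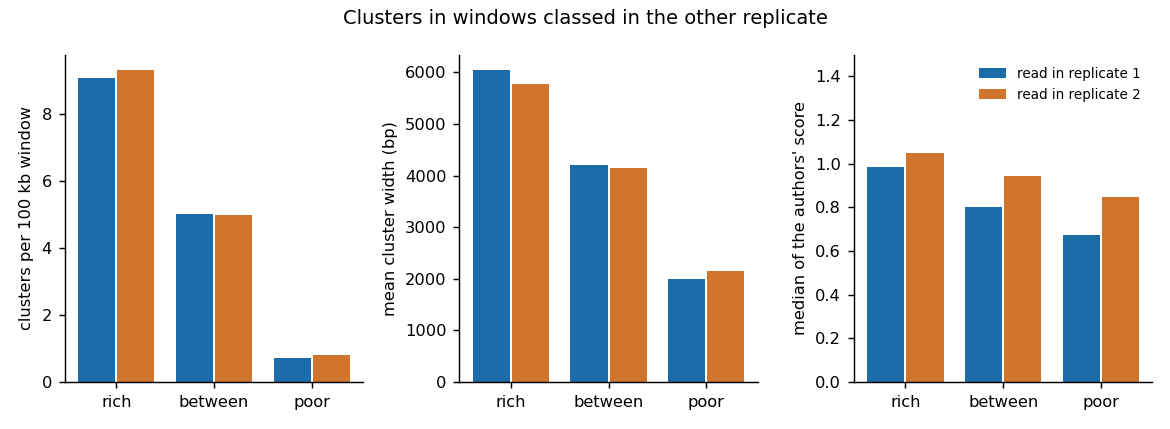
Clusters per 100 kb window (left), mean cluster width in bp (middle) and median of the authors' score (right) in rich, intermediate and poor windows. Blue bars give clusters of replicate 1 in windows classed in replicate 2, and orange bars the converse, with 1 value per bar and no error; number falls from 9.30 to 0.812 and mean width from 5772 bp to 2152 bp between rich and poor windows in replicate 2.

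The width distribution was nearly the same in the replicates. The narrowest cluster was 1302 bp in replicate 1 and 1301 bp in replicate 2. The lower quartile was 1884 bp and 1882.5 bp, the median 3071.5 bp and 3124 bp (mean 3098 ± 37.1 bp, SD, n = 2), and the upper quartile 5626 bp and 5625.5 bp. The widest was 42.2 kb and 34.7 kb. The combined list reached lower and higher, from 1001 bp to 43.7 kb, with a median of 3042 bp.

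Narrow clusters were many and held little length. Clusters up to 2 kb were 28.2% and 28.0% of the number and 9.50% and 9.45% of the covered length. Those of 2 to 5 kb held 27.5% and 28.5% of it, and those of 5 to 10 kb 27.7% and 28.8%. The 87 and 79 clusters of 10 to 20 kb held 27.7% and 24.1%. Over 20 kb there were 13 clusters in replicate 1 and 16 in replicate 2, with 7.69% and 9.17% of the length. In the combined list 29 clusters exceeded 20 kb and held 14.0% of its length.

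The authors' score rose with width up to about 20 kb. Median scores were 0.586, 0.850 and 1.28 for clusters up to 2 kb, of 2 to 5 kb and of 5 to 10 kb in replicate 1. In replicate 2 they were 0.710, 0.981 and 1.38. For clusters of 10 to 20 kb they were higher again, at 1.31 and 1.66. The few clusters over 20 kb had a median of 1.44 in replicate 1, above that class, and of 1.54 in replicate 2, below it. Across clusters the Spearman rho of width and score was 0.77 and 0.78, as a description of each list.

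The widest and the highest-scoring clusters overlapped in part. Among the 740 replicate 1 clusters that touched a replicate 2 cluster, the 74 widest pairs and the 74 highest-scoring pairs, each 10% of all, had 21 in common, which is 28.4% of each. Of either 74, 44 lay in windows rich in both replicates, against 275 of all 740 pairs, where each pair counts in the window that holds the midpoint of its replicate 1 cluster. Wide clusters help to make a window rich and score rises with width, so for width and for score this count is a description only.

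The 6 widest pairs had means from 24.9 kb to 34.8 kb. The first was a 42.2 kb cluster of replicate 1, 8481787 to 8523942 (score 1.42), with a 27.5 kb cluster of replicate 2, 8481950 to 8509472 (score 1.33), so that the lists shared its outer edge to within 200 bp but not its inner edge. The second paired 33.7 kb of replicate 1, 6954824 to 6988564, with 33.9 kb of replicate 2, 6954404 to 6988299, at scores of 1.73 and 1.95. The third was 27.2 kb from 4948116 in replicate 1 and 34.7 kb from 4948087 in replicate 2. The fourth was 30.5 kb from 6004676 and 31.0 kb from 6004217. The last 2 lay further in, at 11260112 (23.6 kb and 27.1 kb) and 17479646 (23.4 kb and 26.4 kb). By the midpoint of the replicate 1 cluster, these 2 were in windows of 31.8% and 36.9% mean coverage, and the pairs at 6954824, 4948116 and 6004676 in windows rich in both replicates. The first pair crossed from a rich block, 8200001 to 8500000, into the next window, which had 37.9% mean coverage.

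The 6 highest-scoring pairs were of moderate width. The highest ran from 10417941 to 10424703 in replicate 1, with a width of 6.76 kb and a score of 1.96, and was 6.55 kb wide with a score of 2.38 in replicate 2. It lies in the most covered window of the arm. Next were the pairs at 4384644 (scores 1.91 and 2.41), 1978005 (2.05 and 2.25), 4828476 (2.02 and 2.25), 2876302 (2.10 and 2.13) and 19058768 (1.96 and 2.23). Their mean widths lay between 4.21 kb and 8.05 kb, and each was matched by 1 cluster of the combined list with a score from 1.99 to 2.09. The pair at 1978005 was in a window of only 19.1% mean coverage.

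Neighbouring clusters lay close together, with long empty stretches between groups of them. The median gap was 2968 bp in replicate 1 and 2989.5 bp in replicate 2, or 2979 ± 15.2 bp (SD, n = 2), whereas the mean gap was 17873 bp and 17347 bp. Gaps under 1 kb made up 23.0% and 26.4% of gaps. The shortest gap was 1 bp in each list, so the lists hold clusters that all but touch. At the other end, 88 and 93 gaps exceeded 50 kb, 9.51% and 9.79% of their number, and spanned 53.1% and 54.0% of the analysed arm. The longest was 608 kb in replicate 1, 638 kb in replicate 2 and 441 kb in the combined list.

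When clusters at most 1 kb apart were joined, replicate 1 had 712 groups and replicate 2 had 699. Of these, 553 and 526 were single clusters, and 40.3% and 44.7% of clusters were in groups of 2 or more. The largest number in a group was 8 in replicate 1 and 7 in replicate 2. The widest group was the same domain in both replicates. Replicate 1 had 3 clusters in its 63.2 kb, 8460763 to 8523942, and replicate 2 had 4 in its 64.3 kb, 8460738 to 8525062, with 98.9% and 98.5% of it inside clusters. It contains the widest pair above, whose unequal widths in the lists were thus a difference in where 1 domain was split. Groups over 20 kb numbered 36 and 34, and those over 50 kb 2 and 1. In the combined list 58 exceeded 20 kb, and the widest was 67.3 kb from 10417810 to 10485122.

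Clusters with no close neighbour had lower median widths in both lists, and lower shares of them touched the other list. Of replicate 1, 47 clusters were 20 kb or more from the nearest other cluster. Their median width was 2085 bp, and 55.3% of them touched a replicate 2 cluster. The 372 clusters with a neighbour under 1 kb away had a median width of 3174 bp, and 83.3% touched one. In replicate 2 the 50 isolated clusters had a median width of 2023 bp with 60% touching, against 3312 bp and 84.7% for the 424 with a close neighbour. A wider cluster has more bases at which 1 shared bp can count as touching, and the part of width in these shares was not tested. Median scores of isolated and close-set clusters were 0.801 and 0.788 in replicate 1 and 0.859 and 0.979 in replicate 2, so they were not ordered alike in the lists.

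Similarity of coverage faded within about 100 kb along the arm, but was higher again at 500 kb. Between windows of 10 kb, Pearson's r was 0.66 at a distance of 10 kb in both replicates, where single clusters can span both windows. It was 0.24 in replicate 1 and 0.21 in replicate 2 at 50 kb, 0.07 in both at 100 kb, and 0.0028 and 0.0055 at 200 kb. At 500 kb it was 0.12 and 0.10. For windows of 100 kb, r between neighbours was 0.33 and 0.35, and 0.01 and 0.04 for windows 200 kb apart. These are descriptions across windows of 1 arm.

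**Figure D5:**
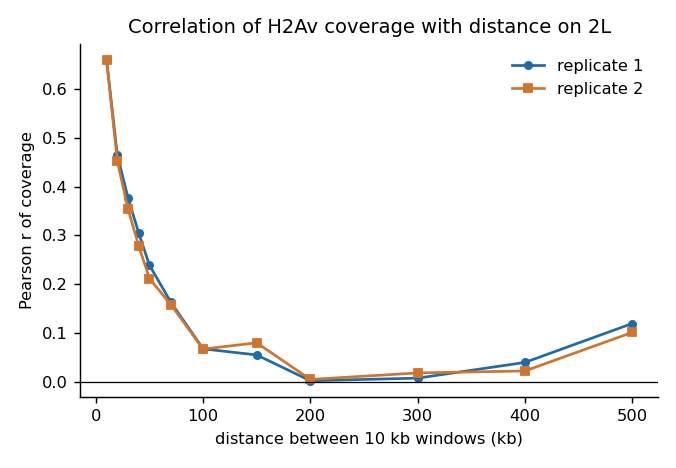
Pearson's r of coverage between 10 kb windows of 2L (y axis) by the distance between the windows in kb (x axis), for replicate 1 (circles) and replicate 2 (squares). Both curves fall from 0.66 at 10 kb to 0.07 at 100 kb, and stand at 0.12 (replicate 1) and 0.10 (replicate 2) at 500 kb.

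Stretches without a cluster in either replicate exceeded 100 kb in 39 places and took up 6.68 Mb, or 31.8% of the analysed arm. Of these, 26 lay in the inner part and 13 in the outer. Over 50 kb the parts were closer, with 46 inner and 39 outer, and over 300 kb 1 lay in each. Of the 9 that exceeded 200 kb, 8 were inner. The longest, 607 kb from 14364764 to 14972227, fell mostly in the longest poor block, and the combined list had 1 cluster in it. The second, 303 kb from 3874187 to 4177610, was the outer exception and was empty in the combined list as well. Assembly gaps and repeats were not looked at here.

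At the level of bases, 3.62 Mb was called in both replicates, which was 82.4% of the length of replicate 1, 81.4% of that of replicate 2 and 69.4% of the 5.22 Mb called in either. In windows rich in both, 78.2% of the length called in either was shared, in intermediate windows 64.4% and in poor windows 24.8%. The poor windows hold 0.103 Mb of called length. By number, 740 replicate 1 clusters (79.9%) touched a replicate 2 cluster, and 760 replicate 2 clusters (79.9%) touched a replicate 1 cluster. The share that touched none was 11.9% and 10.6% in rich windows, against 59.4% and 61.3% of the 32 and 31 clusters in poor windows. Windows were classed here by the same coverage, so these shares are a description and no separate result.

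Where both lists had a single cluster at a place, its edges were close. There were 459 such one-to-one pairs, 49.6% of replicate 1 clusters. The median distance between their starts was 273 bp and between their ends 290 bp, and 94 pairs (20.5%) had both edges within 200 bp. Their widths were not shifted to one side: 243 were wider in replicate 2 and 216 in replicate 1, and the median ratio of replicate 2 to replicate 1 was 1.01, with quartiles of 0.914 and 1.13. In 395 pairs (86.1%) the widths were within 1.5 times of each other. Across these pairs, Spearman's rho was 0.83 for widths and 0.81 for scores. Elsewhere the lists cut domains differently: 120 replicate 1 clusters touched 2 or more clusters of replicate 2, at most 4, and 108 replicate 2 clusters touched 2 or more of replicate 1, at most 3.

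The clusters without a partner were narrow and low in score, but not all lay far from one. There were 186 in replicate 1, at medians of 1675.5 bp in width and 0.670 in score, and 191 in replicate 2, at 1651 bp and 0.789. The median distance to the nearest cluster of the other list was 2694.5 bp and 3726 bp. It was at most 1 kb for 25.8% and 22.5% of them, and above 10 kb for 23.7% and 26.2%. The widest unpartnered clusters were 4754 bp and 6011 bp. Clusters that touched the other list had medians of 3730 bp and 0.949 in replicate 1, and of 3659.5 bp and 1.10 in replicate 2. Since 1 shared bp counts as touching, a narrow cluster has fewer bases to touch with, and the part of width was not tested.

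The combined list kept nearly all that the replicates shared. It held 99.9% of the length called in both and 72.4% of that called in 1 alone. It touched 148 of the 186 unpartnered clusters of replicate 1 (79.6%) and 106 of the 191 of replicate 2 (55.5%). Of its own 1026 clusters, 637 touched both replicates, 139 replicate 1 alone, 112 replicate 2 alone and 138 (13.5%) neither. Those 138 had a median width of 1182 bp, and 86 of them were narrower than the narrowest cluster of either replicate. By position, 28 of them lay in rich windows, 18 in poor ones and 92 in the others. This list was made from the same libraries and is no further replicate.

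Set beside 3L and 3R, also without 2 Mb at the centromere end, 2L was the least covered of the 3 arms in each replicate. Coverage was 21.0 ± 0.172% on 2L, 22.8 ± 0.102% on 3L and 24.3 ± 0.880% on 3R (SD, n = 2). The ratio of 2L to the other arms pooled was 0.900 in replicate 1 and 0.883 in replicate 2 (mean 0.892 ± 0.0123). Density followed, with 44.7 ± 0.841 clusters per Mb on 2L, 49.5 ± 1.91 on 3L and 50.8 ± 2.40 on 3R. Median widths were close, at 3098 ± 37.1 bp, 3178.5 ± 92.6 bp and 3174 ± 43.8 bp. Poor windows made up 30.2 ± 0.337% of 2L, 26.9 ± 0.314% of 3L and 24.5 ± 1.37% of 3R. Neighbouring 100 kb windows correlated with an r of 0.336 ± 0.0152 on 2L, 0.264 ± 0.00790 on 3L and 0.228 ± 0.00941 on 3R. For coverage, density, poor windows and r, 2L differed from each of the others by more than the SD of either arm. That SD is between libraries and does not measure variation along an arm. With 2 libraries of 1 condition no test between arms was made.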

How the data were processed

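H2Av ChIP was sequenced in 2 replicates with 2 inputs. The submitters' processing notes name Bowtie 0.12.7, and the file headers name FlyBase release 5. The authors deposited 1 list of clusters for each ChIP replicate, which per the labels was paired with its own input, and 1 combined list. Beside its position, every cluster carries the authors' score, whose scale is not given in the sources used here, nor are the caller, its threshold and the depth. The score served to rank clusters within a list.

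From these lists, coverage (ends included), widths, gaps, fixed 100 kb windows, blocks and overlaps (at least 1 shared bp) were computed with Python 3.11.15, pandas 2.3.3, numpy 2.4.6 and scipy 1.17.1, and the steps were tested on simulated clusters. The last 11544 bp, after the last full window, count in coverage of the arm only. Values of the replicates are given with mean and SD (n = 2), without tests, since there is 1 condition.

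Named regions follow a rule: the 8 most and 8 least covered windows, all blocks over both replicates, the 6 widest and the 6 highest-scoring pairs, the 4 windows that differ most in each direction, and the longest empty stretch. Other regions were named after their values were seen. The regions, limits and lists were chosen with earlier results of these data known. Alternatives were the combined list, the upper 50% by score, joining within 1 kb, other limits and windows, and each replicate alone. No sequence is shown, since no release 5 genome was at hand and release 6 positions were not used.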

Additional observations from a re-analysis of the deposited data

How the results depend on the processing

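Of 51 alternative values, 34 stayed within the SD of the replicates or, for counts and shares, within 1.5 times. For 12 of the 34 this is fixed by arithmetic, since each of 2 replicates lies within 1 SD of their mean. Most of the 51 are counts, lengths or shares, which have no direction to turn. Among the correlations of adjacent windows and the ratios between arms or parts of 2L, none turned. The combined list moved coverage of 2L to 24.5%, the median width to 3042 bp, the median gap to 2579 bp and the number of rich windows to 53. In the upper 50% by score coverage was 15.9%, a fall fixed by leaving clusters out. The median width there was 5441 bp, and score rises with width within each list. Joining clusters within 1 kb gave 21.5%, 3864 bp and a median gap of 5094 bp. With the rich limit at 30% there were 59 rich windows and 13 rich blocks, and at 50% 20 rich windows. With the poor limit at 10% there were 20 poor blocks, and at 0% 25 poor windows. Adjacent windows correlated with an r of 0.42 at 50 kb and 0.19 at 200 kb. Over whole arms, the ratio of 2L to 3L and 3R was 0.940. No cause of these shifts was tested. The outer-to-inner ratio, with alternatives chosen after seeing the data, lay between 1.68 without replicate 2 and 1.87 without replicate 1. Without either replicate in turn, coverage lay between 20.9% and 21.2%, and rich windows numbered 36 to 40. How depth, which is unknown, limits the calling of narrow clusters was not tested. No paired analysis was possible because ChIP is the 1 group with lists, and inputs carry no cluster values.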

Other observations

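Similarity along the arm was higher again at 400 kb and 500 kb than at 200 kb. Between 100 kb windows, r was 0.01 in replicate 1 and 0.04 in replicate 2 at 200 kb, 0.09 in both at 400 kb, and 0.20 and 0.19 at 500 kb. At 1000 kb it was 0.0068 and -0.0033, and distances between 500 kb and 1000 kb were not computed. Between 10 kb windows r was 0.12 and 0.10 at 500 kb. The pattern was picked from the values themselves and is untested.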
